A study of Rattus norvegicus with 24 samples.

Results

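The genes described here encode 7 liver enzymes that make, use up or live beside hydrogen peroxide, and catalase, which destroys it. They are Nox4, Xdh, Uox, Hao1, Dao, Pipox, Cat and Prdx5. They were picked by name, with earlier results of these data known, and 1 probe set (a group of array probes for 1 gene) was taken for each from the array's probe-to-gene table. All 8 were on the array, each with a single probe set, out of 17245 genes compared. The RNA came from the livers of 24 male Wistar rats, and each rat was given 1 Affymetrix whole-transcript array. The rats ate a diet holding 5% or 20% protein for 1 week or 4 weeks, which gives 4 groups of 6 rats, and no rat carried a genetic change or, per the labels, received a drug. The diets and times are those of the titles. A code in the descriptions gives slightly different protein contents and the design text names 4 weeks only, so they are in some doubt. Each animal is a separate sample, the labels do not say how the rats were housed, and the tissue is whole liver with all its cell types.

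Hydrogen peroxide arises in liver cells wherever an oxidase hands electrons straight to oxygen. Peroxisomes hold several such enzymes, among them urate oxidase, glycolate oxidase, D-amino acid oxidase and pipecolate oxidase, together with catalase, which splits the peroxide into water and oxygen. Xanthine oxidase in the cytosol and NADPH oxidase 4 in membranes add to the supply, and peroxiredoxin 5 of mitochondria, peroxisomes and cytosol reduces peroxide with thioredoxin. All 8 genes are known to be expressed in rodent liver.

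Promoter sequence is shown for 4 of the 8 genes: Nox4 and Xdh, whose response to diet differed between the times, Hao1, which was lower on 5% protein at both times, and Cat, whose difference at 4 weeks was the smallest. The sequences are from RefSeq (build GRCr8), written 5′ to 3′ on the gene's strand, and end at the last base before the first annotated transcript. They are parts of windows from 250 bases before to 50 after a gene's annotated start, and all 8 genes had such a window. Capitals mark a GC box (GGGCGG) or a CCAAT box (CCAAT), searched on both strands.
Nox4, chr1:150313639-150313735, plus strand: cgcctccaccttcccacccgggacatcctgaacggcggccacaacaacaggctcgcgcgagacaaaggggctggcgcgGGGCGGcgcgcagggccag
Xdh, chr6:27282069-27282318, plus strand: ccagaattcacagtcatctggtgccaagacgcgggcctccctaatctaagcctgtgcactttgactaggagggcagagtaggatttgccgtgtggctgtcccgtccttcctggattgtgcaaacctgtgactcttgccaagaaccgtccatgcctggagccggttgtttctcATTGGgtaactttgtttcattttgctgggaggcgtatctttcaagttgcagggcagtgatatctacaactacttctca
Hao1, chr3:142281528-142281744, minus strand: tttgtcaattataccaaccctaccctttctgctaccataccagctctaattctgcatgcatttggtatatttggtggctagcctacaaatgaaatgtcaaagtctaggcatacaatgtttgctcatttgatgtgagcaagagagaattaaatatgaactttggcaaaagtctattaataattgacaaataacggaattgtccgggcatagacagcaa
Cat, chr3:110329527-110329776, minus strand: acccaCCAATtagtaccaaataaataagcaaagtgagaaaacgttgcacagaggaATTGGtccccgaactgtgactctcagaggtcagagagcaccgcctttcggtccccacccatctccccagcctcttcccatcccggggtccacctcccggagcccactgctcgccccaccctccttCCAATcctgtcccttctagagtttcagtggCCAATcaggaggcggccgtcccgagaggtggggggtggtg

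Over the whole windows of the 8 genes, the letters of the GC box were found in 2 (Nox4 and Prdx5), against 33.1% of all 33469 windows of that length, and those of the CCAAT box in 3 (Cat, Xdh and Pipox), against 37.5%. TGACNNNGC, the core of the antioxidant response element, was found in 2 (Dao and Prdx5), against 12.1%. The letters of the TATA box (TATAAA), of a perfect PPAR response element (AGGTCA, any base, AGGTCA) and of an ATF4 amino acid response element (TGATGNAAT) were in the windows of 0 of the 8 genes. They were in 14.2%, 0.0538% and 1.09% of all windows. Matches in the 8 windows did not overlap one another, although TGAC of the antioxidant element is the reverse complement of the end of AGGTCA. Each match or its lack describes these windows only.

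Values below are log2 intensity after RMA (robust multi-array average, which subtracts background, equalises the arrays and sums up the probes). Within a group, the correlation between arrays over all probe sets was 0.984 at the lowest and 0.995 at the highest. Animal numbers in the titles fall into 4 runs, and the 20% animals of 1 week, 3 in the second run and 3 in the fourth, stood apart by run. Between those runs limma called 10.8% of all genes and 1 of the 8 (Dao), against 0.783% and 0 of the 8 between the same runs of the 5% animals. Results at 1 week are therefore given within each run too. Tests within and between runs come from a limma fit of all 24 arrays with a mean for each group and run. Their spread is pooled over all runs and times, so no run is tested on its own rats only. At 1 week each plate row held a single diet, so row and diet cannot be told apart there. Differences are 5% minus 20% protein with the standard error of limma's fit, and a gene was called, and is said to have risen or fallen, when its p, adjusted by Benjamini-Hochberg over all 17245 genes, was below 0.05.

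**Figure D1:**
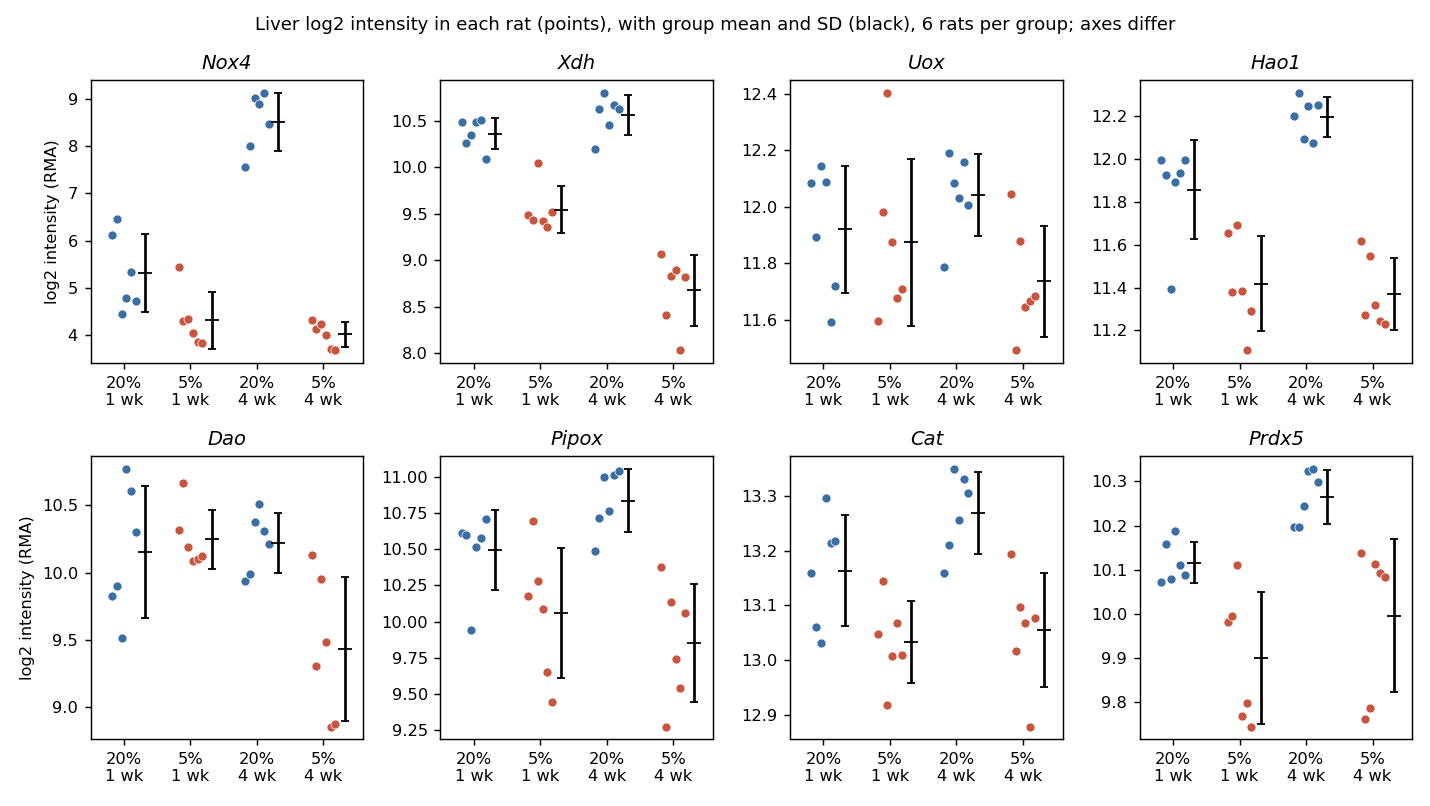
Log2 intensity of each of the 8 genes in each rat (y axis) by diet and time (x axis), blue for 20% and red for 5% protein, with the mean and SD of the 6 rats in black. Nox4 is highest in all 6 rats on 20% protein at 4 weeks, Xdh is lowest in all 6 on 5% protein at 4 weeks, and Cat moves within a narrow range.

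At 4 weeks the question is where these genes stand after prolonged low protein. Of the 8 genes 7 fell and 0 rose by limma's test. The diets are unevenly spread over the runs at 4 weeks, 5 on 5% and 2 on 20% in the first and 1 and 4 in the third. With the run as a covariate 5 of 8 fell, without Cat and Prdx5. The share of all genes called in that fit is not given here. Whether the loss of calls is particular to these genes thus cannot be read from the count. In the fit without the run, all 8 had an unadjusted p below 0.05, and all 8 had a lower mean on 5% protein. The median difference was -0.81, against -0.01 over all genes. In this comparison, in the fit without the run, 25.8% of all genes were called, 12.4% lower and 13.4% higher. In 5 of the 8 (Nox4, Xdh, Hao1, Pipox and Prdx5) all 6 rats on 5% lay below all 6 on 20%, as did 5.88% of all genes. The sizes ran from 22.8-fold for Nox4 to 1.16-fold for Cat. Within the first run 4 of 8 were called lower (Nox4, Xdh, Hao1 and Pipox), with 15.9% of all genes called. In the third, which holds 1 rat on 5%, 4 were called (Nox4, Xdh, Hao1 and Dao), with 12.3% of all genes. The spread of that lone rat is assumed to be that of the other groups, so these calls are no independent support.

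The comparison at 1 week asks how far the same genes had moved early. Xdh and Hao1 fell, 2 of 8, where 2.44% of all genes were called lower and 1.86% higher. With a random block for the plate row, 1 of 8 (Xdh) was called, and over all genes 168 were lower and 168 higher, against 420 and 321. The groups did not overlap in 1 of the 8, Xdh, as in 1.36% of all genes with 5% lower. The median of the 8 was -0.33, and 7 of 8 means were lower on 5%, Dao being the exception. Within the second run 1 of 8 was called lower (Xdh), with 7.57% of all genes called. In the fourth 4 were (Xdh, Hao1, Pipox and Prdx5), with 8.49%. The diet effect itself differed between the times in 2 of the 8, Nox4 and Xdh, as in 5.75% of all genes (2.2% with a more negative effect at 4 weeks). These 3 comparisons share animals, so their counts are not separate evidence.

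**Figure D2:**
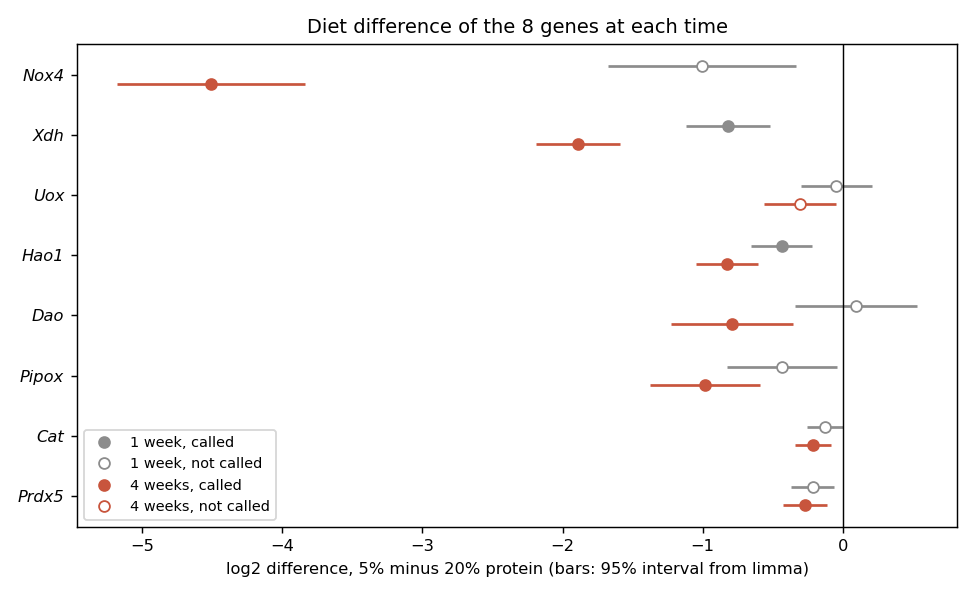
Log2 difference of 5% minus 20% protein (x axis) for each of the 8 genes (y axis) at 1 week (grey) and 4 weeks (red), with the 95% interval of limma's fit, not adjusted for multiple tests. Filled points passed the test over all genes. At 4 weeks Nox4 lies at -4.51 and Xdh at -1.89, and Cat and Prdx5 lie nearest to 0 among the genes called.

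Nox4 encodes an NADPH oxidase that releases hydrogen peroxide without outside activation. On 20% protein its log2 intensity was 4.44 at the lowest, 5.06 at the median and 6.47 at the highest at 1 week, and 7.57, 8.68 and 9.12 at 4 weeks. On 5% protein it was 3.83, 4.17 and 5.45 at 1 week, and 3.67, 4.06 and 4.32 at 4 weeks. The 20% rats at 4 weeks thus stood above every rat of the other 3 groups, which overlapped in neighbouring pairs.

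On 20% protein Nox4 rose by 3.20 ± 0.33 from 1 to 4 weeks, a 9.22-fold change (limma adjusted p = 7.22e-07). It was 1 of 8 called there, against 1.02% of all genes called higher and 1.5% lower. Its change ranked 12 by size among the 17245 genes. The times are in different runs, so run and time cannot be told apart. Among the 20% rats of 4 weeks Nox4 was 7.57 to 8.01 in the first run and 8.46 to 9.12 in the third. On 5% protein the change with time was -0.30 ± 0.33 (adjusted p = 0.671). The diet difference was -4.51 ± 0.33 at 4 weeks (adjusted p = 6.18e-10), which ranked 16 by size. At 1 week it was -1.01 ± 0.33 (adjusted p = 0.0816). The effect at 4 weeks minus that at 1 week was -3.50 ± 0.46 (adjusted p = 0.000114), which ranked 6.

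At 1 week Nox4 passed in 1 of 13 other settings, with the run as a covariate (-1.01, adjusted p = 0.0370). It also passed in 2 of 12 omissions of an animal. They were the highest rat on 5%, animal 49 (-1.24, adjusted p = 0.0286), and the lowest on 20%, animal 53 (-1.18, adjusted p = 0.0420). Within runs at 1 week the differences were -0.98 (limma adjusted p = 0.114) and -1.03 (adjusted p = 0.0894), and neither passed. At 4 weeks they were -3.71 and -5.20, where the third run held 1 rat on 5%. The levels on 5% protein are near the low end of the scale, and RMA gives no detection call, so the fold changes are values of this scale and no bounds. Markers of stellate cells, which also express Nox4, were lower with it at 4 weeks: 5 of 9 were called lower, against 12.4% of all genes. Their summed level was 11.11 to 11.39 on 5% against 11.65 to 12.27 on 20%. Between the times on 20% protein, where Nox4 rose, limma called 0 of these 9 markers (1 had an unadjusted p below 0.05), and their summed level was 11.44 to 11.91 at 1 week. In the diet comparison at 1 week 1 of the 9, Rgs5, was called lower. Fewer cells of a type and less RNA per cell cannot be told apart in whole liver.

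Of the other NADPH oxidase subunits and partners measured, 2 of 10 fell and 0 rose at 4 weeks, where 12.4% of all genes fell and 13.4% rose. They were Cybb, the catalytic subunit of phagocytes (-0.50 ± 0.15, adjusted p = 0.0143), and Cyba, the p22phox partner that Nox4 shares with it (-0.46 ± 0.13, adjusted p = 0.00919). At 1 week limma called 0 of 10, and 0 had an unadjusted p below 0.05. Macrophage markers were lower with them at 4 weeks, 9 of 11 called lower and 1, Cd14, higher, against 12.4% and 13.4% of all genes. The summed macrophage level was 12.05 to 12.34 on 5% and 12.49 to 13.21 on 20%, and its part in the Cybb and Cyba results was not tested.

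Xdh encodes xanthine dehydrogenase, which turns hypoxanthine and xanthine into uric acid and makes hydrogen peroxide in its oxidase form. On 20% protein its log2 intensity was 10.10, 10.42 and 10.51 (lowest, median and highest) at 1 week and 10.20, 10.63 and 10.81 at 4 weeks. Rats on 5% had 9.36, 9.46 and 10.05 at 1 week and 8.03, 8.83 and 9.07 at 4 weeks. The 20% groups overlapped, both lay above both 5% groups, and the 5% groups did not overlap each other, as in 1.94% of all genes with 4 weeks lower.

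Xdh fell by 0.82 ± 0.15 at 1 week (1.77-fold, adjusted p = 0.00168), and the 4 week difference of -1.89 is 3.71-fold (adjusted p = 1.52e-09). The effect at 4 weeks minus that at 1 week was -1.07 ± 0.21 (adjusted p = 0.00452). Over time it fell on 5% protein by 0.87 ± 0.15 (adjusted p = 0.000842), while on 20% the change was 0.20 ± 0.15 (adjusted p = 0.520). It passed in both runs at 1 week, at -0.71 and -0.93, and in the first run at 4 weeks, at -1.77. The third run gave -1.82, with 1 rat on 5% whose spread is taken from the other groups. On 5% at 1 week, rat 54 (10.05) stood above the other 5.

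Uox encodes urate oxidase of the peroxisome core, which takes the uric acid made by Xdh onward and releases hydrogen peroxide. Its log2 intensity on 20% protein was 11.59, 11.99 and 12.14 at 1 week and 11.79, 12.06 and 12.19 at 4 weeks. The 5% rats had 11.60, 11.79 and 12.40 at 1 week and 11.49, 11.68 and 12.05 at 4 weeks. All 4 groups overlapped. The diet difference was -0.05 ± 0.12 at 1 week (adjusted p = 0.911), with a 95% interval from -0.30 to 0.21. At 4 weeks it was -0.31 ± 0.12 (adjusted p = 0.0725), with an interval from -0.56 to -0.05, so a difference of the size seen in Xdh lay outside it. Uox passed at 4 weeks in 2 of 13 other settings and in 2 of 12 omissions of an animal. It did so with array weights (-0.32, adjusted p = 0.0370), with only the 2 groups in the fit (adjusted p = 0.0360) and without 5% animal 22 (-0.37, adjusted p = 0.0334). The same was seen on leaving out 20% animal 29 (-0.36, adjusted p = 0.0415).

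Around Xdh and Uox, genes of purine breakdown and salvage were called in both directions at 4 weeks. Of 18 genes 5 were lower and 3 higher, against 12.4% and 13.4% of all genes, with a median of -0.08. Pnp, which frees hypoxanthine, a substrate of Xdh, from inosine, fell by 1.02 ± 0.13. Nt5e, an ectoenzyme that makes adenosine from AMP, fell by 0.59 ± 0.09. Higher were Slc17a3, a urate and anion transporter (0.69 ± 0.16), and the nucleotidase gene Nt5c3b (0.46 ± 0.11). At 1 week Pnp was the 1 gene of the 18 called, at -0.46 ± 0.13.

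Of 10 purine synthesis genes 7 rose and 0 fell at 4 weeks, with a median of 0.59, where 13.4% of all genes rose and 12.4% fell. Adsl, adenylosuccinate lyase, rose by 0.79 ± 0.13, and Paics, which works earlier in the ring's assembly, by 0.90 ± 0.17. At 1 week limma called 0 of the 10, and 2 had an unadjusted p below 0.05.

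Hao1 encodes glycolate oxidase, a peroxisomal enzyme that turns glycolate into glyoxylate and releases hydrogen peroxide. On 20% protein its log2 intensity was 11.39, 11.93 and 12.00 at 1 week and 12.08, 12.22 and 12.31 at 4 weeks. Values on 5% were 11.11, 11.38 and 11.69 at 1 week and 11.23, 11.30 and 11.62 at 4 weeks. Both 5% groups overlapped each other. On 20% all 6 rats at 4 weeks lay above all 6 at 1 week, although that change of 0.34 ± 0.11 did not pass (adjusted p = 0.0905). The same held for Nox4 and Prdx5, so 3 of 8 genes did not overlap there, against 0.887% of all genes with 4 weeks higher.

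Hao1 fell at 1 week by 0.44 ± 0.11 (adjusted p = 0.0188), and at 4 weeks the difference was -0.83 (adjusted p = 3.02e-06). At 1 week 20% animal 53, at 11.39, lay among the 5% rats, and without it the difference was -0.53 (adjusted p = 0.00183). The 1 week call was lost in the second run, which holds that rat (-0.20, adjusted p = 0.475; -0.68 and 0.00433 in the fourth). A random block for the plate row ended it too (-0.41, adjusted p = 0.0839), as did a fit of the 2 groups alone (-0.44, adjusted p = 0.0729). Leaving out 5% animal 75 brought it to the threshold (-0.38, adjusted p = 0.05001).

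Dao encodes D-amino acid oxidase, which breaks down glycine and D-amino acids and releases hydrogen peroxide. Its log2 intensity on 20% protein was 9.51, 10.10 and 10.77 at 1 week and 9.94, 10.26 and 10.51 at 4 weeks. On 5% it was 10.09, 10.15 and 10.67 at 1 week and 8.85, 9.39 and 10.13 at 4 weeks. Every pair of neighbouring groups overlapped.

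Dao fell at 4 weeks by 0.79 ± 0.21 (1.73-fold, adjusted p = 0.00678), and on 5% protein it fell by 0.82 ± 0.21 from 1 to 4 weeks (adjusted p = 0.0186). With Xdh it made 2 of 8 called lower over time on 5%, against 4.13% of all genes lower and 4.15% higher. Without 5% animal 32 at 4 weeks, Xdh alone was called there. The difference between the diet effects was -0.88 ± 0.30 (adjusted p = 0.0795). The diet difference at 1 week was 0.09 ± 0.21 (adjusted p = 0.887) and had opposite signs in the runs, at 0.64 ± 0.22 in the second (adjusted p = 0.0838) and at -0.46 ± 0.22 in the fourth (adjusted p = 0.248). The effect differed between these runs by -1.10 ± 0.32 (adjusted p = 0.0362), as in 7.29% of all genes. The 20% rats were higher in the fourth run by 0.82 ± 0.22 (adjusted p = 0.0210). At 4 weeks Dao did not pass in the first run (-0.42 ± 0.23, adjusted p = 0.243). The third gave -1.48 ± 0.31 (adjusted p = 0.00302), which rests on 1 rat on 5% and on a spread taken from the other groups.

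**Figure D3:**
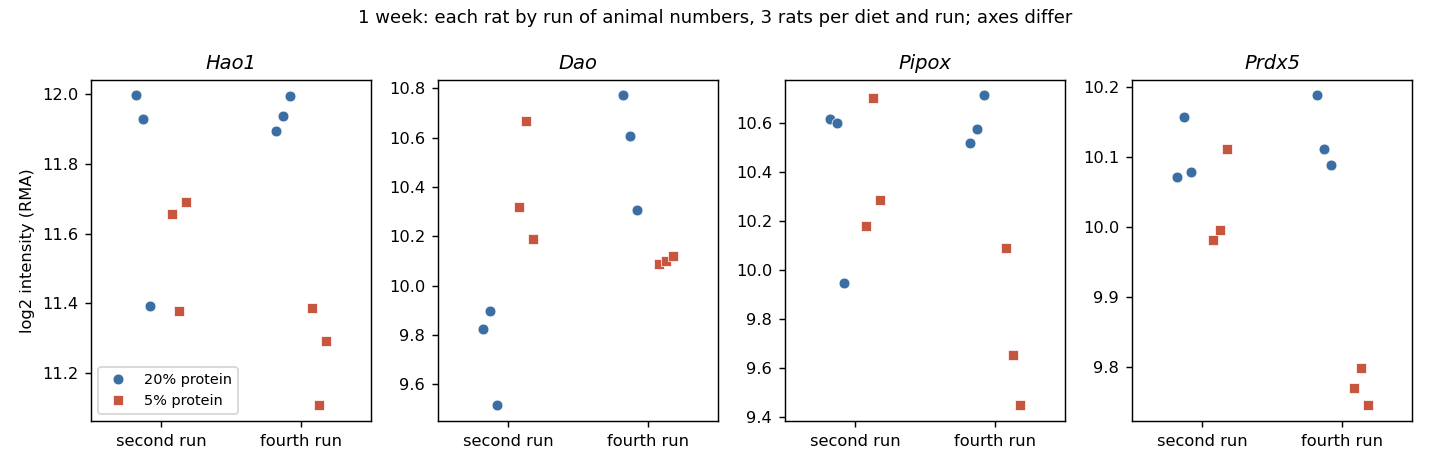
Log2 intensity (y axis) of Hao1, Dao, Pipox and Prdx5 in each rat at 1 week by run of animal numbers (x axis), with 3 rats per diet and run, circles for 20% and squares for 5% protein. In Dao the 5% rats lie above the 20% rats in the second run and below them in the fourth, and in Pipox the diets mix in the second run and part in the fourth.

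Of the enzymes that share substrates or products with Hao1 and Dao, 7 of 17 fell at 4 weeks and 1 rose, with a median of -0.23. Of all genes 12.4% fell and 13.4% rose. Prodh2, hydroxyproline dehydrogenase on the way to glyoxylate, fell by 1.37 ± 0.19. Gnmt, which methylates glycine to sarcosine, fell by 1.84 ± 0.28. Srr, which makes D-serine, a substrate of Dao, rose by 0.78 ± 0.19. At 1 week 2 of 17 fell, Sds (-2.61 ± 0.53) and Grhpr, which reduces glyoxylate (-0.34 ± 0.08).

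Pipox encodes pipecolate and sarcosine oxidase, a peroxisomal enzyme of lysine and sarcosine breakdown. On 20% protein its log2 intensity was 9.94, 10.59 and 10.71 at 1 week and 10.49, 10.88 and 11.04 at 4 weeks. Rats on 5% had 9.45, 10.13 and 10.70 at 1 week and 9.28, 9.90 and 10.38 at 4 weeks. The diets overlapped at 1 week and not at 4 weeks.

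Pipox fell at 4 weeks by 0.98 ± 0.19 (1.98-fold, adjusted p = 0.000363). The difference at 1 week was -0.43 ± 0.19 (adjusted p = 0.220), made up of 0.0020 in the second run, with an adjusted p of 0.998, and -0.87 ± 0.23 in the fourth, with 0.0221. The difference between those runs did not pass (-0.87 ± 0.33, adjusted p = 0.117). The 20% rat with the lowest value at 1 week was again animal 53. At 4 weeks the first run gave -0.79 (adjusted p = 0.0269), and the third gave -0.90 (adjusted p = 0.0704).

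Other genes of lysine and pipecolate breakdown were lower as well, 6 of 8 at 4 weeks with 1 higher and a median of -0.67. Of all genes 12.4% were called lower and 13.4% higher. Aldh7a1, which acts after Pipox on its product, fell by 0.64 ± 0.08, and Dhtkd1, further along the lysine pathway, by 0.86 ± 0.14. The gene that rose was Pycr1 (2.92 ± 0.23), a proline synthesis enzyme that can also reduce the product of Pipox. At 1 week 1 of 8 fell, Aldh7a1 (-0.36 ± 0.08), and 1 rose, Pycr1 (1.28 ± 0.23).

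Cat encodes catalase, the main peroxide-splitting enzyme of liver peroxisomes. On 20% protein its log2 intensity was 13.03, 13.19 and 13.30 at 1 week and 13.16, 13.28 and 13.35 at 4 weeks. The 5% rats had 12.92, 13.03 and 13.14 at 1 week and 12.88, 13.07 and 13.19 at 4 weeks. Neighbouring groups overlapped throughout, at 4 weeks through the highest 5% rat (animal 22) and the lowest 20% rat (animal 29). The spread within groups was small, with a residual SD of 0.09 against a median of 0.18 over all genes.

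The 4 week difference of Cat, -0.21 in log2, is 1.16-fold (adjusted p = 0.0120). It lost the call with the run as a covariate (-0.17, adjusted p = 0.0937). Within the first run it was -0.13 and did not pass (adjusted p = 0.342), and within the third, with 1 rat on 5%, it was -0.23. At 1 week it was -0.13 ± 0.06 (adjusted p = 0.270). The interval of the 4 week difference ran from -0.34 to -0.09. Those of Nox4, Xdh, Hao1, Dao and Pipox lay wholly below -0.34, and the differences between genes were not tested.

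Prdx5 encodes peroxiredoxin 5, which reduces peroxide in mitochondria, peroxisomes and cytosol. On 20% protein its log2 intensity was 10.07, 10.10 and 10.19 at 1 week and 10.20, 10.27 and 10.33 at 4 weeks. Values on 5% were 9.74, 9.89 and 10.11 at 1 week and 9.76, 10.09 and 10.14 at 4 weeks. The diets overlapped at 1 week through rat 54 on 5% and did not at 4 weeks.

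Prdx5 fell at 4 weeks by 0.27 ± 0.08 (1.21-fold, adjusted p = 0.00916). That call was lost with the run as a covariate (-0.22, adjusted p = 0.0682). Within the first run the difference was -0.22 and did not pass (adjusted p = 0.144), and within the third, with 1 rat on 5%, it was -0.22. At 1 week the difference was -0.22 ± 0.08 (adjusted p = 0.108), where the second run gave -0.07 (adjusted p = 0.757) and the fourth gave -0.36 (adjusted p = 0.0227). Among 12 omissions of an animal at 1 week, Prdx5 passed in 1, that of rat 54 (-0.26, adjusted p = 0.0496).

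Other genes that remove peroxide were split at 4 weeks, 5 of 23 lower and 5 higher, against 12.4% and 13.4% of all genes, with a median of 0.02. Gpx1, the main glutathione peroxidase of liver, fell by 1.01 ± 0.14, and Msra, which repairs oxidised methionine, by 0.60 ± 0.15. Glrx2, the glutaredoxin of mitochondria, rose by 0.51 ± 0.10 and Gpx2, the glutathione peroxidase best known from gut, by 1.74 ± 0.41. At 1 week Gpx1 was the 1 gene of the 23 called (-0.53 ± 0.14).

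Among other sources of peroxide, 14 of 23 fell at 4 weeks and 5 rose, against 12.4% and 13.4% of all genes, with a median of -0.47. Hao2, the long-chain hydroxyacid oxidase of peroxisomes, was lower by the widest margin of the list (-4.82 ± 0.63), and Acox2 passed too. Qsox1, which forms disulfides in secreted proteins, rose by 2.23 ± 0.23 and Smox, spermine oxidase, by 1.95 ± 0.20. At 1 week 2 of 23 fell, Hao2 and Sod1, the cytosolic superoxide dismutase (-0.38 ± 0.07), and 1 rose, Qsox1 (0.99 ± 0.23). The list is broad: Sardh, Dmgdh and Suox, all lower at 4 weeks, pass electrons mainly to the respiratory chain.

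Enzymes are brought into peroxisomes by the peroxins. Of 10 genes, peroxins and the matrix proteases Lonp2 and Tysnd1, 2 fell at 4 weeks and 1 rose, with a median of -0.01. That is near the 25.8% of all genes called. Pex13 of the docking complex fell by 0.30 ± 0.09, Pex5, the receptor that carries catalase and the oxidases, was lower too, and Pex14 was higher. At 1 week limma called 0 of 10, and 1 had an unadjusted p below 0.05.

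**Figure D4:**
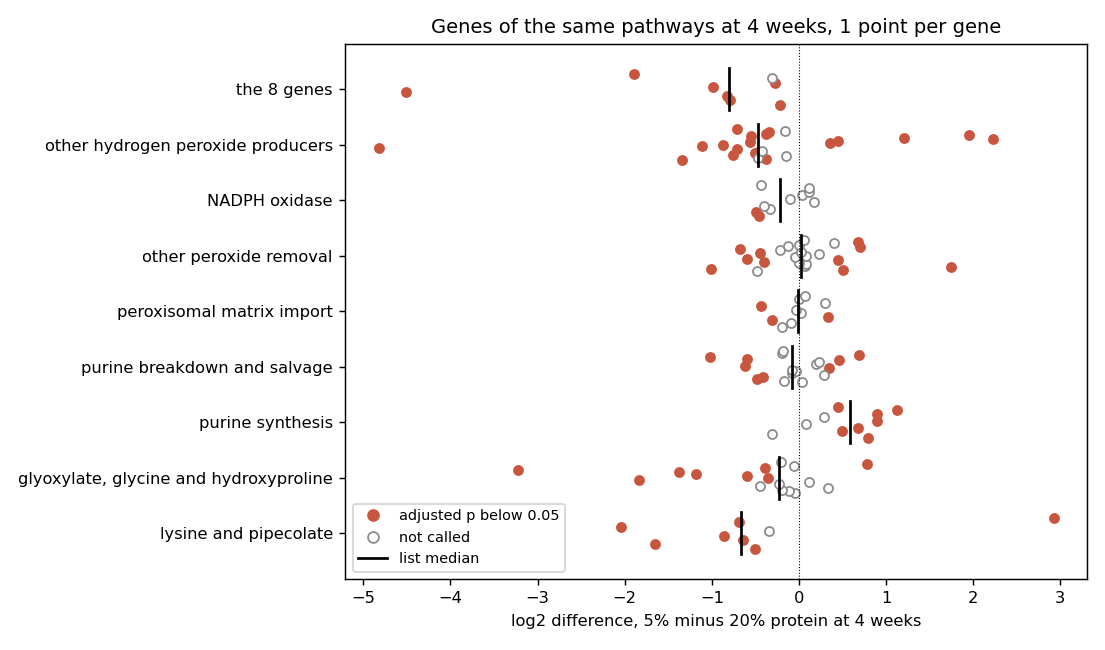
Log2 difference of 5% minus 20% protein at 4 weeks (x axis) for the 8 genes and for genes of the same pathways (y axis, 1 point per gene), with list medians as black bars. Red points passed the test. The 8 genes have a median of -0.81, purine synthesis lies mostly above 0, and genes that remove peroxide lie on both sides.

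Genes with the most similar pattern were sought for Xdh and Nox4, the members whose 4 group means span over 1 on the log2 scale. Likeness was the root mean square difference over the 24 arrays after each gene was centred on its own mean. Nearest to Xdh were Afm, a vitamin E-binding plasma protein (0.30), Xpnpep2, a membrane aminopeptidase (0.30), and Tdo2, which opens the ring of tryptophan (0.31). The SD of Xdh over the arrays was 0.79. Nearest to Nox4 were Sult1c2al1 of the sulfotransferases (0.73), Akr1c1 of the aldo-keto reductases (0.78) and Acnat2, an acyltransferase of bile acids and fatty acids (0.79), where the SD of Nox4 was 1.87. Their diet differences at 4 weeks were -3.25, -4.98 and -3.76, and at 1 week -0.30, -2.08 and -1.23. These genes were picked for likeness on the same arrays, so large differences at 4 weeks follow from the choice. Akr1c1 and Sult1c2al1 have close relatives in the genome, so their probe sets may also read those relatives.

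Defining hepatocyte genes were strong in these samples, with a mean log2 intensity over the 24 arrays of 13.72 for Alb (albumin). Of 9 hepatocyte markers 3 were lower at 4 weeks, with summed levels of 16.05 to 16.33 on 5% and 16.16 to 16.38 on 20%. Periportal markers were lower in 6 of 8 and higher in 1, with sums of 13.47 to 14.45 and 14.43 to 14.95, and pericentral ones in 2 and 1 of 8. Endothelial markers were lower in 2 of 7, lymphocyte in 2 of 6 and erythroid in 2 of 6, and cholangiocyte markers were higher in 2 of 5. Of all genes 12.4% were called lower at 4 weeks and 13.4% higher, so counts of 2 or 3 in a list say little about a cell type. The periportal count, 6 of 8 lower, lies above the share of all genes. For exocrine pancreas (6 markers) limma called 0, and 1 had an unadjusted p below 0.05. For adipocytes (4 markers) both counts were 0, which compare groups and do not describe single rats. The summed adipocyte level at 4 weeks had a median of 6.52 on 5% and reached 8.79 in the highest rat. On 20% the median was 6.63 and the highest 7.55. At 1 week the lower markers included 4 of 6 erythroid, 3 of 8 periportal (1 higher) and 2 of 8 pericentral ones, against 2.44% of all genes lower and 1.86% higher. The summed pericentral level was then 13.58 to 13.88 on 5% and 14.06 to 14.19 on 20%, with no overlap. This sum of unlogged intensities is mostly Cyp2e1 (mean log2 12.86) and Gstm1 (12.67). At 1 week Gstm1 was called lower (-0.52), Cyp2e1 was not (-0.20, limma adjusted p = 0.322), and Rhbg lay the other way (0.37, not called). The part of these marker differences in the values of the 8 genes was not tested.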

How the data were processed

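The authors deposited 1 intensity per probe set and array, unlogged, made with RMA per the submitters' processing notes. No RMA version or genome build is given in the sources used here. Log2 of the intensity was taken with no offset. Of 29214 probe sets, 18644 were paired with 1 gene symbol, and the brightest per gene was kept. The 4 group means were fitted with limma 3.58.1 (lmFit and eBayes) in R 4.3.3, with 20 residual degrees of freedom and two-sided tests. Adjusted p values are from limma. Precision is limited by the number of arrays. The fit was tested on simulated data with known differences.

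The 8 genes and the lists of pathway genes and markers were chosen with earlier results of these data known. In each pathway list the genes named are the 2 with the smallest p called in each direction at 4 weeks and 1 each way at 1 week. Others (Grhpr, Cd14, Rgs5, Alb, Lonp2, Tysnd1, Sardh, Dmgdh, Suox) were named after their values were seen. Some listed genes were not analysed here. Alternatives covered normalization, offset, probe set choice, a filter on dim genes, the variance model, plate position, runs of animal numbers and each animal left out.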

Additional observations from a re-analysis of the deposited data

Results flagged for a closer look

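Single rats stood apart from their group in 4 places, each by the gap to the nearest rat divided by the group's range (a test that chance meets in about 1 in 20 groups, with 32 groups looked at). Xdh on 5% protein at 1 week was 10.05 in animal 54, the next being 9.52. Hao1 on 20% at 1 week was 11.39 in animal 53 against 11.89, and Pipox was 9.94 in the same rat against 10.52. Nox4 on 5% at 1 week was 5.45 in animal 49 against 4.34.

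The diet effect at 4 weeks was more negative than at 1 week for Xdh (-1.07, limma adjusted p = 0.00452) and Nox4 (-3.50, adjusted p = 0.000114). The effect on Dao at 1 week was more negative in the fourth run of animal numbers than in the second (-1.10, adjusted p = 0.0362).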

How the results depend on the processing

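No paired analysis was possible because each animal number occurs in 1 group only. At 4 weeks the directions of all 8 genes were kept under all 13 other settings and all 12 omissions of an animal, and Nox4, Xdh and Hao1 were called in each. Members called lower numbered 4 in the first run of animal numbers, and again 4 in the third, against 7 overall (7 to 8 without single animals). Over all genes the first run gave 1434 higher and 1300 lower, the third 1178 and 946. At 1 week 1 member was called lower with only the groups compared, with well row as a random block and in the second run, and 4 in the fourth, against 2 overall (1 to 3 without single animals). Genes called at 1 week were 168 higher and 168 lower with the row block, 494 and 812 from the second run, 696 and 768 from the fourth. Without single animals they ranged from 213 to 354 higher and from 205 to 425 lower, lowest without 5% animal 74. Over time on 5%, 1 to 2 members were lower without single animals. For the fit of the groups alone, and for omissions at 4 weeks or over time, the share of all genes called is not given here. Whether changes in those member counts are particular to these genes thus cannot be read from them. Signs turned at 1 week, with no call, for Pipox in the second run (0.0020), Dao in the fourth (-0.46), Dao without 20% animal 53 (-0.034 to 0.22 over single omissions) and Uox without 5% animal 49 (-0.15 to 0.0095). Fewer rats enter each run and the third held 1 rat on 5%. RMA values carry no measure of background, which limits what Nox4 shows on 5% protein.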
